A study of Mus musculus with 44 samples.

Results

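The *Il6st*, *Lifr*, *Jak1*, *Stat3* and *Socs3* loci were followed through 12 groups of mouse preimplantation embryos by ATAC-seq, an assay in which the Tn5 transposase inserts adapters where chromatin is accessible. A peak belonged to a locus when it overlapped the GENCODE gene body or the 20 kb on either side of it on the mm10 (GRCm38) genome. This gave 80 of the 152393 deposited peaks, each a window of 200 bp: 22 at *Lifr*, 18 at *Stat3*, 16 at *Jak1*, 13 at *Socs3* and 11 at *Il6st*. Of these 80 peaks, 41 were in introns, 20 were upstream of the gene, 8 overlapped a UTR exon, 7 were downstream, 3 overlapped a coding exon and 1 another exon. The gene bodies were chr13:112464070-112510086 on the plus strand for *Il6st*, chr15:7090614-7197489 on the plus strand for *Lifr*, chr4:101152367-101265282 on the minus strand for *Jak1*, chr11:100885098-100939540 on the minus strand for *Stat3* and chr11:117966079-117970047 on the minus strand for *Socs3*. One peak downstream of *Lifr* lay inside *Egflam*, and a pair of peaks upstream of *Socs3* lay inside *Pgs1*.

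The study asked how chromatin depends on Oct4, the protein of *Pou5f1*, and on Sox2 before implantation. All embryos, labelled B6C3F1 and control (Ctrl) embryos included, came from mothers that were homozygous for a floxed *Pou5f1* or floxed *Sox2* allele and carried Zp3-Cre, which acts in the oocyte, so that every embryo lacked the maternal gene product of its line. The knockout (KO) embryos, labelled Oct4_KO or Sox2_KO and called *Pou5f1*-KO and *Sox2*-KO here, also carried a paternal null allele with the mKO2 or EGFP reporter, whereas the Oct4_Ctrl and Sox2_Ctrl embryos were maternal knockouts only. The *Pou5f1* line was sampled as morula (E2.75) and late morula (E3.25), with 3 libraries per genotype, and as early ICM (E3.75) and late ICM (E4.5), with 4 libraries per genotype. The *Sox2* line was sampled as early and late ICM only, with 4 libraries per genotype. Mothers were superovulated, and each of the 44 libraries was a pool of 20 to 40 morulae or inner cell masses (ICMs). The study calls the libraries of a group biological replicates, but nothing used here ties them to separate litters or days, so the p-values measure the spread between these pools. The ICM embryos were collected at E2.5, cultured in KSOM with 1 µM of the MEK inhibitor PD0325901, and stripped of trophectoderm by immunosurgery, which the morulae were not. Stage, culture, inhibitor and surgery therefore cannot be told apart between morula and ICM.

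Leukaemia inhibitory factor (LIF) binds the receptor subunit encoded by *Lifr*, which pairs with gp130, the signal-transducing subunit encoded by *Il6st* and shared by the cytokines of the interleukin 6 family. The receptor complex activates Janus kinases such as Jak1, which phosphorylate gp130 and the transcription factor Stat3, and Stat3 then enters the nucleus and activates its targets. One of these targets is *Socs3*, whose product binds gp130 and shuts the signal down. In the mouse this pathway sustains naive embryonic stem cells in culture and supports the epiblast of blastocysts in diapause.

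Peaks are named below by the distance of their centre from the 5′ end of the gene, with negative distances upstream. Because the results turn on a few windows, their sequences are shown first, read from GRCm38 on the plus strand. Capitals mark 4 kinds of word found by letters alone on either strand. An OCT word is ATGCAAAT or ATGCTAAT, a SOX word is CATTGT or CTTTGT, and a STAT word is TTCC and GGAA with 1 base between them. An OCT-SOX word is a SOX word, any 1 base and an OCT word in a row, with up to 3 mismatches over its 15 bases, so that it can overlap an OCT or a SOX word. The first window has the deepest loss in both knockouts, the next 3 are the *Lifr* windows with the largest differences, and the last is shown for contrast because it changed in the opposite direction and holds none of these words.
*Il6st* −1.43 kb, chr13:112462545-112462744: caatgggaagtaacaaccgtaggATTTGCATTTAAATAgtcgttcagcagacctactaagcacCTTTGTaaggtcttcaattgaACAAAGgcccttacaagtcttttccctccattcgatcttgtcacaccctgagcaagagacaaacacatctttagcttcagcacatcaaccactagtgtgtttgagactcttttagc
*Lifr* −8.57 kb, chr15:7081941-7082140: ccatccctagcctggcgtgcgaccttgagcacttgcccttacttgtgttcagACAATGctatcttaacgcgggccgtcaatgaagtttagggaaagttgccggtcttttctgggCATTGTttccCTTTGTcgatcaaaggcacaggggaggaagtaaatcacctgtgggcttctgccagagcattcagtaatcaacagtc
*Lifr* +24.92 kb, chr15:7115432-7115631: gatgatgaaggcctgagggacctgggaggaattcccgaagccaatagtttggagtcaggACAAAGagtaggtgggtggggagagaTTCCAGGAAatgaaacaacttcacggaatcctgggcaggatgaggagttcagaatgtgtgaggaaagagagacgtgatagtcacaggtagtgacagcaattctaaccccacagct
*Lifr* +26.27 kb, chr15:7116786-7116985: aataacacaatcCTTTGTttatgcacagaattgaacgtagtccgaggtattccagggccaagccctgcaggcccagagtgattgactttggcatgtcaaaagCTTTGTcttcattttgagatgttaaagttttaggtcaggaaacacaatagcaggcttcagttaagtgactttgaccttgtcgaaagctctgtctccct
*Stat3* +33.04 kb, chr11:100906401-100906600: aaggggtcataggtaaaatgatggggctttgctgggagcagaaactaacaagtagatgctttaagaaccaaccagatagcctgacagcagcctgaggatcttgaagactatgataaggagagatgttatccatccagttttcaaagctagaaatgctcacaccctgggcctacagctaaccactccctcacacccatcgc

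In the *Il6st* window the first run of capitals is an OCT-SOX match on the minus strand, chr13:112462568-112462582, that reads tatttaaatgcaaat there. Its OCT part is a perfect OCT word, and all 3 mismatches lie in its SOX part. A SOX word stands on each strand further along. The *Lifr* −8.57 kb window holds 3 SOX words and no OCT word, and the +26.27 kb window holds 2 SOX words. The +24.92 kb window holds 1 SOX word and, at chr15:7115517-7115525, 1 of the only 2 STAT words among the 80 peaks. The other STAT word was in the *Socs3* peak 0.76 kb into the gene, and 29 bases around it (chr11:117969229-117969257) show its palindromic letters.
*Socs3* +0.76 kb, STAT word in capitals: cgccccccgaTTCCTGGAActgcccggcc

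Such words are common, and a match is a description of letters rather than a binding site. STAT words were in 2.5% of the 80 peaks and in 0.986% of all peaks. SOX words were in 31 of the 80, or 38.8%, against 25% of all peaks, and OCT words were in 4, or 5%, against 3.76%. OCT-SOX matches were in 5 of the 80, or 6.25%, against 7.25% of all peaks. TFAP2 words (GCC and GGC with 3 bases between them) were in 16 of the 80, or 20%, against 11%.

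Accessibility is given as rlog, the regularized log2 insertion count that the authors deposited. Library medians over all peaks ran from 2.35 to 2.63, and the mean correlation of a library with the others of its group ran from 0.816 to 0.882. Read depth is unknown from these values. In *Sox2*-KO ICMs a *Sox2* peak read 0.54 to 1.19 (early) and 0.49 to 1.05 (late), below all Ctrl libraries at 1.96 to 2.74 and 2.35 to 3.28, whereas a peak in a *Pou5f1* coding exon overlapped between *Pou5f1*-KO and Ctrl at all 4 stages and so does not check those labels. The mean rlog of 14 peaks within 1 kb of the start sites of 6 epiblast genes, *Nanog* and *Esrrb* among them, was 2.48 to 2.85 in *Pou5f1*-KO late ICM against 3.94 to 4.10 in Ctrl, with 10 of the 14 called lower. In early ICM it was 2.77 to 3.22 against 3.89 to 4.14, with 8 called lower. In *Sox2*-KO late ICM it was 3.20 to 3.49 against 3.84 to 4.07, with 2 called lower, and in early ICM it was 3.13 to 3.84 against 3.31 to 3.67, with 0 called. In *Pou5f1*-KO morula and late morula 1 of the 14 was called lower by limma, at *Esrrb* (−1.86, adjusted p = 0.0055, and −1.76, 0.0038). Of 12 primitive endoderm peaks at genes such as *Gata6* and *Sox17*, 1 was called lower in *Pou5f1*-KO early ICM and none elsewhere. The mean of 16 trophectoderm peaks at genes such as *Cdx2* and *Gata3* was 3.79 to 4.05 in *Sox2*-KO late ICM against 3.18 to 3.59 in Ctrl, with 2 called higher, at *Gata3* and *Cdx2*. In *Pou5f1*-KO late ICM it was 3.44 to 3.89 against 3.44 to 3.88, and 1 peak was called higher, at *Krt18* (mean 5.23 against 4.21, adjusted p = 0.017 by limma). The KO means of the other 6 genes, of which no peak was called, were above Ctrl at *Krt8* (5.36 against 4.63) and *Gata3* (5.09 against 4.58) and below it at *Cdx2* (4.71 against 4.92), *Eomes* (2.84 against 3.18), *Elf5* (2.19 against 2.35) and *Tfap2c* (4.09 against 4.48). The part of these markers in the differences below was not tested. In pooled embryos, fewer cells with an open site and a less open site in each cell cannot be told apart.

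The receptor loci opened when the Ctrl embryos passed from late morula to early ICM. A peak was called when its adjusted p was under 0.05 in limma fitted to all 152393 peaks and 44 libraries. On this step 34 of the 80 peaks were called higher and 7 lower, where 14.7% and 15% of all peaks were, and the median difference was 0.85 on the log2 scale against −0.04 over all peaks. At *Lifr* 20 of 22 peaks were called higher and 0 lower, and at *Il6st* 5 of 11 were called higher and 1 lower. At *Socs3* 5 were called higher and 2 lower, at *Stat3* 3 and 2, and at *Jak1* 1 and 2. The widest rise was at *Lifr* −8.57 kb, by 4.60 (SE 0.43, adjusted p = 2.5e-14), followed by *Lifr* +24.92 kb, by 4.20 (adjusted p = 4.4e-13), and *Il6st* −1.43 kb, by 4.09 (SE 0.47, adjusted p = 5.6e-11).

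The promoters opened to different extents on this step. The *Lifr* promoter peak (−0.12 kb, chr15:7090394-7090593) read 1.30, 1.10 and 1.46 in Ctrl late morula and 5.03, 4.98, 5.34 and 5.27 in Ctrl early ICM. The groups stood far apart, and the difference was 3.87 (SE 0.45, adjusted p = 6.3e-11). The *Il6st* promoter peak (−0.04 kb, chr13:112463932-112464131) rose by 1.22 (adjusted p = 0.01), from a level already near 4, although without Ctrl late morula library 2 the difference was 1.06 with an adjusted p of 0.061. The *Jak1* promoter peak (−0.06 kb, chr4:101265245-101265444) and the *Stat3* promoter peak (−0.06 kb, chr11:100939496-100939695) were among the most accessible peaks of these loci and were not called on this step, although with only the libraries compared the *Jak1* difference of 0.69 had an adjusted p of 0.036, against 0.082. Their Ctrl means were 4.91 and 5.02 in late morula and 5.60 for each in early ICM.

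Fewer of these peaks changed on the other steps of Ctrl development. From morula to late morula 3 peaks of *Socs3* were called lower and 3 of *Stat3* higher, where 2.79% and 3.65% of all peaks were. The *Socs3* peaks lay 2.34, 2.76 and 5.74 kb upstream and fell by 1.81, 1.97 and 1.84, and the *Stat3* peaks lay 12.04, 11.24 and 9.64 kb into the gene and rose by 1.04, 2.13 and 1.78. The number of called peaks fell from 6 to 2 without Ctrl morula library 1, and to 3 without Ctrl morula library 2 or Ctrl late morula library 2. At −5.74 kb the call was lost without Ctrl morula library 1 (−1.21, adjusted p = 0.21) and without Ctrl late morula library 2 (−1.68, adjusted p = 0.063). The upstream *Socs3* peaks at −2.76 and −5.74 kb then rose again into early ICM, by 1.83 (adjusted p = 0.00019) and 3.35 (adjusted p = 2e-08). From early to late ICM 0 of the 80 peaks were called in *Pou5f1*-line Ctrl by limma, where 0.18% of all peaks were called lower and 0.0787% higher, and 3 were lower and 7 higher at an unadjusted p under 0.05. In *Sox2*-line Ctrl 0 were called lower and 1 higher, where 0.121% and 0.474% were. The 1 called peak was *Il6st* −2.74 kb (chr13:112461233-112461432), which rose by 2.38 (adjusted p = 0.00078).

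**Figure D1:**
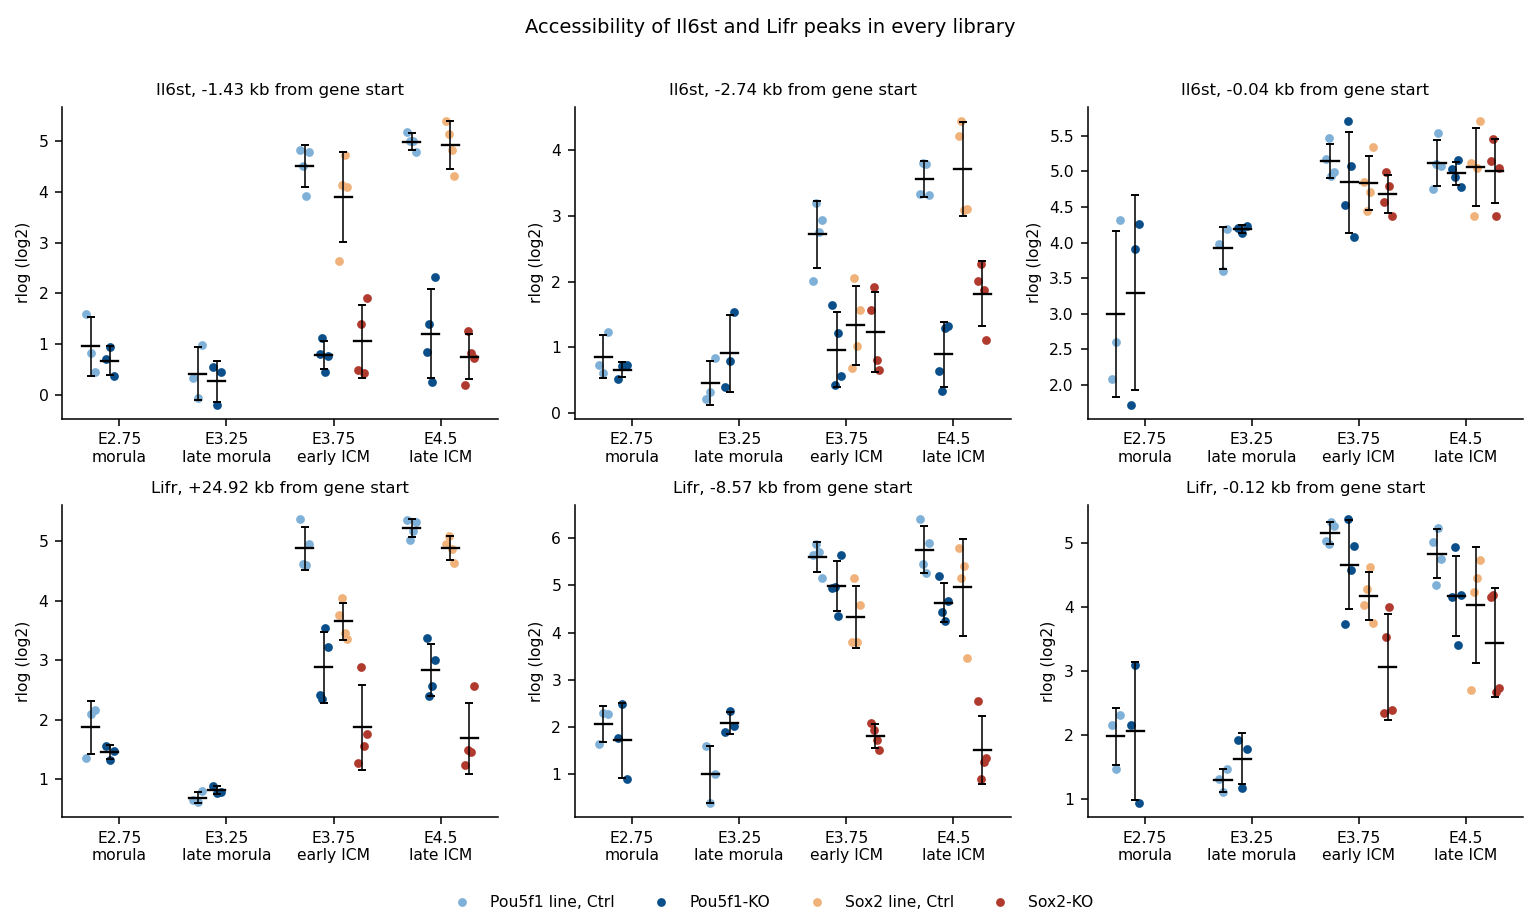
Accessibility (rlog, log2 scale, vertical axis) of 3 *Il6st* and 3 *Lifr* peaks in every library, by group along the horizontal axis; points are libraries, and the black lines give the group mean and 1 SD either side. At *Il6st* −1.43 kb the Ctrl ICM means lie between 3.89 and 4.99 and all KO ICM means between 0.75 and 1.20, whereas both promoter peaks open in the ICM with no knockout difference called.

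Loss of Oct4 lowered accessibility at the receptor loci in the ICM, and none of the 80 peaks was called in morulae. In morula 0 peaks were called lower and 0 higher by limma, where 0.185% and 0.0518% of all peaks were, and 1 was lower and 1 higher at an unadjusted p under 0.05. In late morula 0 were called lower and 0 higher, where 0.539% and 0.108% were, and 3 were lower and 6 higher at an unadjusted p under 0.05. There all KO libraries lay above all Ctrl libraries at 13 of the 80 peaks and below them at 4, where 7.69% and 8.94% of all peaks did. The *Socs3* locus mean read 3.03, 3.38 and 3.18 in KO late morula and 2.72, 2.71 and 2.69 in Ctrl, without overlap, and 11 of its 13 differences were positive (median 0.56 against −0.01 over all peaks). In early ICM 7 were called lower and 1 higher, where 5.43% and 2.753% of all peaks were. In late ICM 19 were called lower and 3 higher, where 10.1% and 8.19% were, and the median difference was −0.27 against −0.04 over all peaks. Of the 19, 12 were at *Lifr*, 4 at *Il6st* and 3 at *Socs3*. All 3 that were higher were in introns of the kinase and transcription factor genes, 2 at *Stat3* and 1 at *Jak1*.

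Loss of Sox2 also lowered receptor peaks in the ICM. In early ICM 6 peaks were called lower and 0 higher, where 1.91% and 0.238% of all peaks were, and 5 of the 6 were at *Lifr* and 1 at *Il6st*. By limma 2 were higher there at an unadjusted p under 0.05. In late ICM 10 were called lower and 5 higher, where 4.88% and 2.71% were, and the median difference was −0.32 against 0.01 over all peaks. The lower peaks were 7 at *Lifr* and 3 at *Il6st*, and the higher ones were 3 at *Jak1* and 2 at *Stat3*. In late ICM 9 peaks were called lower in both knockouts, or 9 of the 19 for *Pou5f1* and 9 of the 10 for *Sox2*, and these were 7 *Lifr* and 2 *Il6st* peaks. The 1 peak called higher in both was in *Jak1*. In early ICM 3 peaks were called lower in both.

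The peaks lowered in late ICM were mostly peaks that had opened on the way into the ICM, as they were genome-wide. Of the 34 peaks called higher from late morula to early ICM, 17 were called lower in *Pou5f1*-KO late ICM, which is also 17 of the 19, where 52.4% of all peaks called lower in *Pou5f1*-KO late ICM had opened on that step. Over all peaks called higher on that step, 36.1% were called lower in *Pou5f1*-KO late ICM. For *Sox2*-KO late ICM the count was 9 of the 34, against 19.9% of all such peaks, and 9 of the 10, against 59.8% of all peaks called lower in *Sox2*-KO late ICM. The late ICM comparisons share no library with that step.

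**Figure D2:**
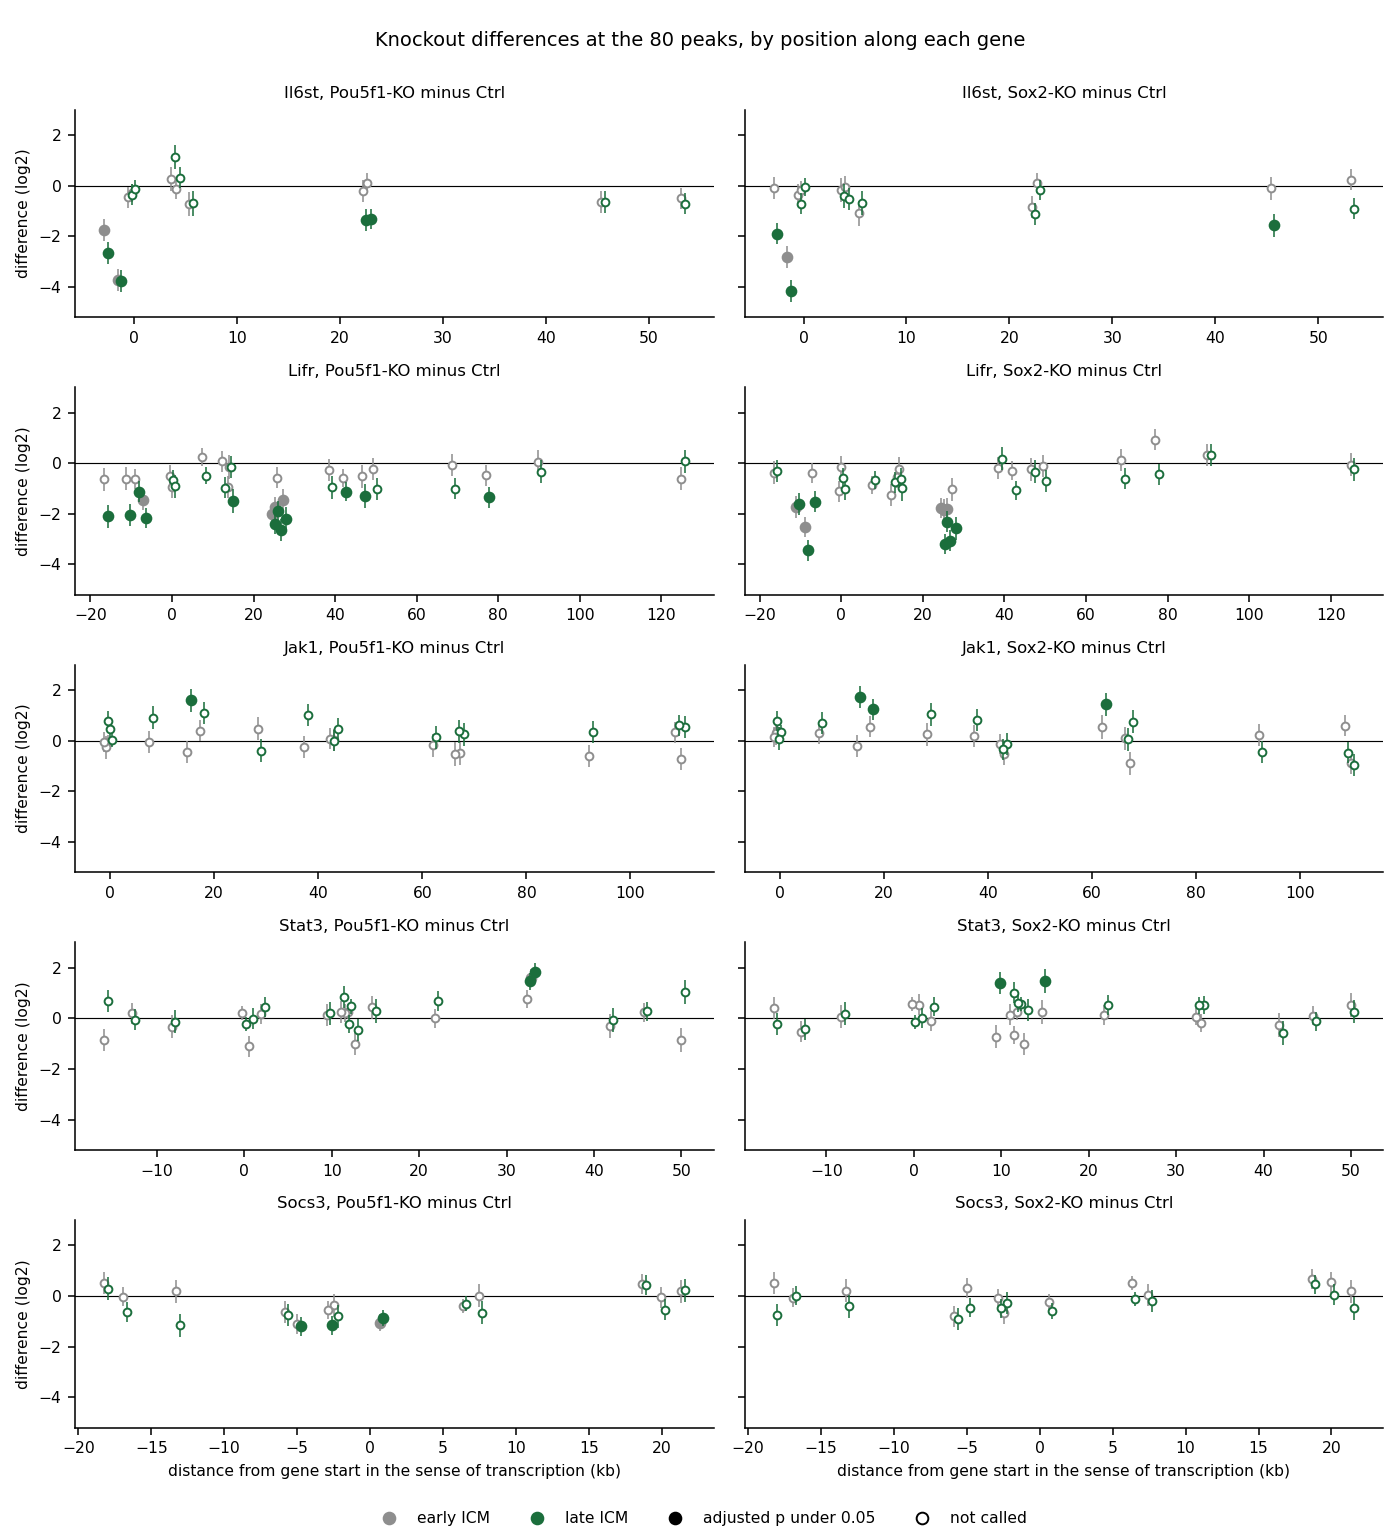
Difference in rlog between KO and Ctrl (log2 scale, vertical axis) for each of the 80 peaks against the distance of its centre from the gene's 5′ end (kb, horizontal axis), for early ICM (grey) and late ICM (green), drawn slightly apart; filled points were called and vertical lines are 1 SE. The 12 *Lifr* peaks called lower in *Pou5f1*-KO late ICM lie both upstream of the gene and within it, and all called *Jak1* and *Stat3* peaks lie above 0.

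The *Il6st* peak at −1.43 kb was close to its morula level in both knockouts. In *Pou5f1*-line early ICM it read 4.82, 4.51, 3.92 and 4.78 in Ctrl and 0.81, 1.12, 0.46 and 0.77 in KO. In late ICM it read 5.19, 5.00, 4.99 and 4.78 in Ctrl and 0.85, 1.39, 0.26 and 2.32 in KO. The groups did not overlap at either stage, and KO library 4 was the highest of its group in late ICM. The differences were −3.72 (SE 0.43, adjusted p = 9.1e-11) in early and −3.78 (adjusted p = 1.9e-11) in late ICM. In *Sox2*-line early ICM the peak read 2.64, 4.12, 4.72 and 4.10 in Ctrl and 0.48, 1.39, 0.43 and 1.92 in KO. In late ICM it read 5.40, 5.13, 4.83 and 4.32 in Ctrl and 0.19, 1.26, 0.83 and 0.74 in KO. Again no KO library reached a Ctrl library, and the differences were −2.84 (adjusted p = 1.5e-06) and −4.16 (SE 0.43, adjusted p = 8.4e-13). Morula libraries of both genotypes lay between −0.19 and 1.59. In the order of the 12 group means the 4 Ctrl ICM groups, from 4.99 down to 3.89, each overlapped the next and stood clear of the 8 others, which ran from 1.20 to 0.27 with every neighbouring pair overlapping.

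A difference without Oct4 was found at this *Il6st* peak in early ICM and not in late morula, where the peak was already low in Ctrl. In late morula the peak read 0.34, −0.05 and 0.98 in Ctrl and 0.55, −0.19 and 0.45 in KO. With a Ctrl mean of 0.42 there, a further fall could hardly be seen, so the stages cannot show when the peak came to depend on Oct4. The test of the difference between the stages gave −3.57 (SE 0.66, adjusted p = 0.0024), and this was the only 1 of the 80 peaks called there, where 0.346% of all peaks were called. Leaving out each of the 14 libraries in turn kept it between −3.85 and −3.33, called in all 14. With the replicate number as a block 2 peaks were called, the second being *Lifr* +24.92 kb at −2.12 with an adjusted p of 0.05 after rounding, against 0.09 without the block. The effects of the knockouts did not differ detectably at the *Il6st* peak in late ICM, where the *Pou5f1* effect minus the *Sox2* effect was 0.38 (SE 0.62, adjusted p = 0.86).

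The other *Il6st* peaks had smaller differences, and the difference between the knockouts was called at none of the 11 *Il6st* peaks in either ICM stage. *Il6st* −2.74 kb read 3.34, 3.81, 3.79 and 3.32 in *Pou5f1*-line Ctrl late ICM and 0.64, 0.34, 1.30 and 1.32 in KO. In *Sox2*-line late ICM it read 4.22, 4.44, 3.09 and 3.10 in Ctrl and 2.01, 2.26, 1.87 and 1.12 in KO. Neither pair of groups overlapped, and the differences were −2.66 (adjusted p = 7.3e-07) and −1.90 (adjusted p = 0.00097). In early ICM it was −1.75 (adjusted p = 0.0027) for *Pou5f1* and −0.10 for *Sox2*, whose Ctrl level there was still low at 1.33 ± 0.60 (SD, n = 4). The *Il6st* promoter peak differed by −0.30 and −0.15 in *Pou5f1*-KO and by −0.16 and −0.05 in *Sox2*-KO, early and late, and none of these was called. Chosen after their values were seen, an intronic pair 22.37 and 22.81 kb into the gene was called lower in *Pou5f1*-KO late ICM, by −1.36 and −1.32. A UTR exon peak 45.57 kb into the gene was called lower in *Sox2*-KO late ICM, by −1.57. With 1 library left out these calls were lost in 2, 1 and 2 of 8 fits each.

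A group of intronic *Lifr* peaks, 24.92 to 27.62 kb from the 5′ end, lost accessibility in both knockouts. *Lifr* +24.92 kb read 5.37, 4.62, 4.60 and 4.95 in *Pou5f1*-line Ctrl early ICM and 2.41, 2.35, 3.55 and 3.23 in KO. In late ICM it read 5.36, 5.02, 5.18 and 5.32 in Ctrl and 3.37, 2.40, 2.56 and 3.01 in KO. All KO libraries lay below all Ctrl libraries, by −2.002 (adjusted p = 0.00013) and −2.39 (SE 0.40, adjusted p = 1.6e-06) on average, but stayed above the late morula level of 0.69 in Ctrl. In *Sox2*-line late ICM it read 4.95, 5.09, 4.88 and 4.63 in Ctrl and 1.24, 1.48, 1.45 and 2.57 in KO, a difference of −3.20 (adjusted p = 4.7e-10). In early ICM the difference for *Sox2* was −1.78 (adjusted p = 0.002). *Lifr* +25.58 kb (chr15:7116097-7116296) was also called in all 4 ICM comparisons, with differences of −1.75 and −1.91 in *Pou5f1*-KO and −1.84 and −2.30 in *Sox2*-KO.

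At the other 2 peaks of this group the early ICM difference was called in 1 of the knockouts, and the late difference in both. *Lifr* +26.27 kb read 4.21, 3.44, 4.31 and 3.92 in *Pou5f1*-line Ctrl early ICM and 2.98, 3.46, 2.89 and 4.28 in KO, and these groups overlapped. In late ICM it read 4.77, 4.35, 4.73 and 4.45 in Ctrl and 2.60, 1.79, 2.14 and 1.17 in KO, and they did not. The differences were −0.57, not called, and −2.65 (adjusted p = 7.9e-07). For *Sox2* they were −1.81 (adjusted p = 0.0049) and −3.06 (adjusted p = 2.8e-08). The early *Sox2* call was lost without Ctrl library 4 (−1.48, adjusted p = 0.073) and without KO library 3 (−1.54, adjusted p = 0.062). At *Lifr* +27.62 kb (chr15:7118134-7118333) the *Pou5f1* differences were −1.46 (adjusted p = 0.026) and −2.20, and the *Sox2* differences were −1.03, not called, and −2.58. Its early *Pou5f1* call was lost with only the libraries compared (adjusted p = 0.051) and without Ctrl library 2 or 4 or KO library 2 or 3, at −1.12 to −1.49 with adjusted p of 0.053 to 0.17. The difference between the knockouts was not called at either peak or stage.

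The *Lifr* peak at −8.57 kb had a larger difference from its own Ctrl without Sox2 than without Oct4. In *Sox2*-line late ICM it read 5.80, 5.16, 5.42 and 3.47 in Ctrl and 2.56, 0.90, 1.27 and 1.34 in KO. In *Pou5f1*-line late ICM it read 6.40, 5.45, 5.27 and 5.91 in Ctrl and 5.19, 4.45, 4.25 and 4.66 in KO. Both knockouts lay below all their Ctrl libraries, and the *Pou5f1*-KO libraries stayed at levels that *Sox2*-line Ctrl libraries also had. The difference was −3.45 (SE 0.40, adjusted p = 4.9e-11) for *Sox2* and −1.12 (SE 0.40, adjusted p = 0.036) for *Pou5f1*. The *Pou5f1* call was lost without Ctrl library 1 or 4 or KO library 2, 3 or 4, at −0.91 to −1.13 with adjusted p of 0.064 to 0.14. In early ICM the differences were −2.52 (adjusted p = 3.6e-06) for *Sox2* and −0.62, not called, for *Pou5f1*. Sox2_Ctrl minus Oct4_Ctrl at this peak was −1.27 in early ICM (adjusted p = 0.1, or 0.028 with only the libraries compared) and −0.80 in late ICM (adjusted p = 0.36).

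The *Pou5f1* effect minus the *Sox2* effect at this peak was 2.33 (SE 0.57, adjusted p = 0.018) in late ICM, the only 1 of the 80 peaks called there, where 0.905% of all peaks were. It was called in 12 of 16 fits with 1 library left out. It was lost without *Pou5f1*-line Ctrl library 3 (2.17, adjusted p = 0.058), *Pou5f1*-KO library 1 (2.14, 0.055), *Sox2*-line Ctrl library 1 (2.05, 0.071) and *Sox2*-KO library 2 (2.12, 0.064). In early ICM the same contrast was 1.90 with an adjusted p of 0.084, and 0 of the 80 peaks were called by limma, where 0.68% of all peaks were, with 7 lower and 5 higher at an unadjusted p under 0.05. With the replicate number as a block 2 were called, this peak (adjusted p = 0.028) and *Stat3* +33.04 kb. Among the 12 group means of this peak only the fall from *Sox2*-line Ctrl early ICM (4.33) to *Pou5f1*-KO late morula (2.09) separated neighbours without overlap, and both *Sox2*-KO ICM groups, at 1.81 and 1.51, were among the morula levels.

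Further *Lifr* peaks upstream and within the gene were lower, whereas the promoter peak at −0.12 kb was not called. *Lifr* −10.81 kb (chr15:7079704-7079903) differed by −0.61, not called, and −2.05 (adjusted p = 0.00022) in *Pou5f1*-KO and by −1.72 (adjusted p = 0.012) and −1.61 (adjusted p = 0.0091) in *Sox2*-KO. The early call was lost with only the libraries compared (adjusted p = 0.062) and without Ctrl library 2 (−1.40, adjusted p = 0.12) or KO library 1 (−1.60, 0.057), and the late call without Ctrl library 1 or 2 or KO library 4 (−1.39 to −1.45, 0.05 to 0.058). Called in *Pou5f1*-KO late ICM alone were 5 other peaks, described after their values were seen, with differences of −1.12 to −2.10. They lay 16.22 kb upstream and 14.49, 42.30, 46.97 and 77.44 kb into the gene, and with 1 library left out the call was lost in 0, 4, 2, 5 and 1 of 8 fits in that order. The *Lifr* promoter peak read 5.01, 4.34, 5.24 and 4.75 in *Pou5f1*-line Ctrl late ICM and 4.16, 4.94, 3.41 and 4.19 in KO. These groups overlapped, and its differences of −0.49, −0.66, −1.11 and −0.59 in the 4 ICM comparisons were not called. Peaks 38.90 and 49.83 kb into the gene overlap other annotated *Lifr* start sites. In *Pou5f1*-KO late ICM they were not called by limma (adjusted p = 0.13 and 0.091). Both were called without KO library 2 (−1.32 each, 0.045 and 0.036), and the latter also without KO library 4 (−1.31, 0.039). Over all 22 *Lifr* peaks 21 were lower on average in *Pou5f1*-KO and 20 in *Sox2*-KO late ICM, with median differences of −1.12 and −0.73.

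**Figure D3:**
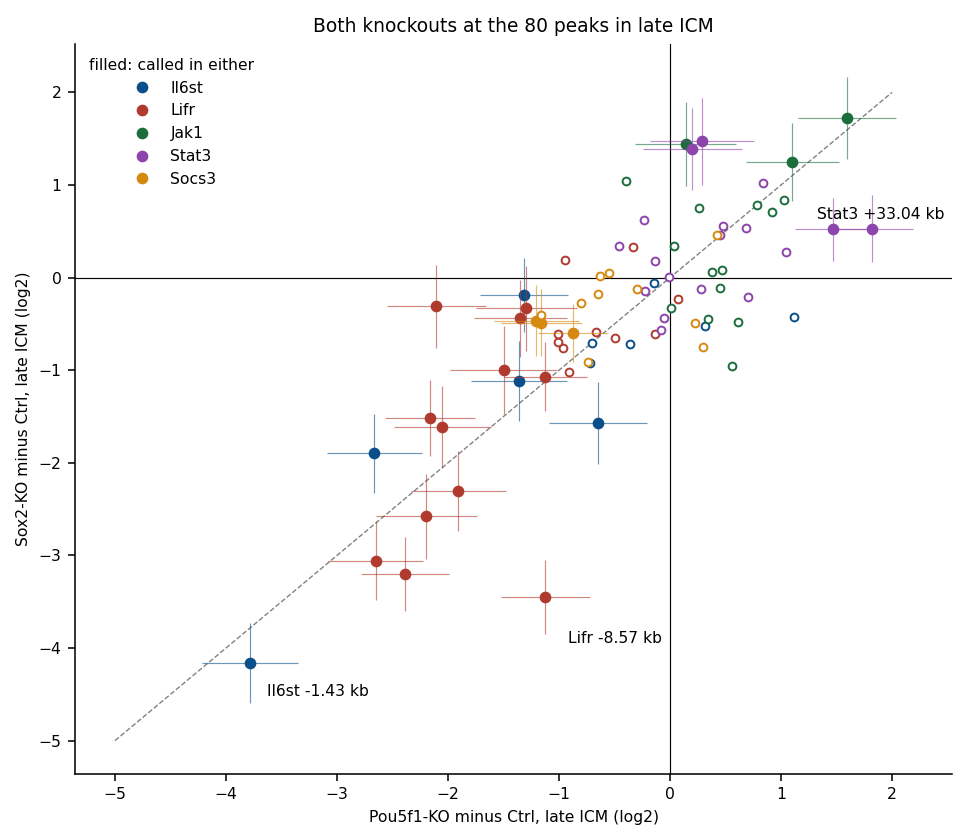
Difference in rlog (KO minus Ctrl, log2 scale) of the 80 peaks in late ICM, *Pou5f1*-KO on the horizontal and *Sox2*-KO on the vertical axis, coloured by locus; filled points were called in either knockout and carry lines of 1 SE, and the dashed line marks equal differences. The *Il6st* −1.43 kb peak is at −3.78 and −4.16, and *Lifr* −8.57 kb is at −1.12 and −3.45.

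Between the Ctrl ICMs of the lines few of the 80 peaks were called, in shares near those of all peaks, but the *Lifr* peaks were mostly lower in Sox2_Ctrl. In early ICM 1 of the 80 peaks was called between Sox2_Ctrl and Oct4_Ctrl, where 0.899% of all peaks were, and in late ICM 2 were, where 1.43% were. All were at *Lifr* and lower in Sox2_Ctrl. At an unadjusted p under 0.05, 17 of the 80 were lower and 0 higher in early ICM and 15 and 0 in late ICM, where 11064 and 10719 of all 152393 peaks were lower and 8259 and 10560 higher. At *Lifr* 20 of 22 differences were negative in early and 19 of 22 in late ICM, with medians of −0.79 and −0.72 against −0.04 and −0.01 over all peaks. The *Lifr* locus mean was 2.36 to 2.57 in Sox2_Ctrl against 2.97 to 3.47 in Oct4_Ctrl in early ICM and 2.65 to 3.19 against 3.57 to 3.71 in late ICM, with no overlap at either stage. *Lifr* −6.80 kb (chr15:7083715-7083914) read 3.09, 3.27, 3.09 and 3.40 in *Pou5f1*-line Ctrl late ICM and 0.36, 1.15, 2.14 and 1.44 in *Sox2*-line Ctrl. The groups did not overlap, and the line difference was −1.94 (adjusted p = 0.0033) in late and −1.67 (adjusted p = 0.021) in early ICM. The early call was lost with only the libraries compared (adjusted p = 0.055) and without *Pou5f1*-line Ctrl library 3 (−1.29, adjusted p = 0.16) or *Sox2*-line Ctrl library 3 or 4 (−1.57 and −1.59, 0.07 and 0.059). The other was the peak at −16.22 kb (−1.68, adjusted p = 0.031), lost without any of 5 of the 8 Ctrl libraries, which were libraries 2 and 3 of the *Pou5f1* line and 1, 2 and 4 of the *Sox2* line, at −1.38 to −1.70 with adjusted p of 0.071 to 0.18. At *Lifr* −6.80 kb the KO differences were −1.45 and −2.16 in *Pou5f1*-KO and −0.39, not called, and −1.52 in *Sox2*-KO, each set against its own Ctrl. The early *Pou5f1* call was lost without Ctrl library 3 (−1.08, adjusted p = 0.12) or KO library 4 (−1.30, 0.056), and the late *Sox2* call without Ctrl library 3 (−1.23, 0.07).

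The signalling genes downstream of the receptor kept open promoters in both knockouts. The *Jak1* promoter peak differed by −0.05 and 0.03 in *Pou5f1*-KO and by 0.38 and 0.34 in *Sox2*-KO, and the *Stat3* promoter peak by 0.20 and −0.22 and by 0.58 and −0.15. None of these 8 differences was called. In late ICM the *Jak1* promoter read 6.04, 5.69, 5.54 and 4.98 in *Pou5f1*-line Ctrl and 6.03, 5.62, 5.34 and 5.40 in KO, which overlap almost completely. The *Stat3* promoter read 5.08, 5.87, 6.14 and 5.95 in Ctrl and 5.53, 6.12, 5.40 and 5.10 in KO.

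At the kinase gene *Jak1*, 1 of 16 peaks was called higher in *Pou5f1*-KO late ICM (6.25%, under the 8.19% of all peaks) and 3 of 16 in *Sox2*-KO late ICM (18.8%, against 2.71%), all in introns. Of the 16 differences 15 were positive in *Pou5f1*-KO, with a median of 0.46 against −0.04 over all peaks and 5 higher at an unadjusted p under 0.05. In *Sox2*-KO 11 were positive, with a median of 0.52 against 0.01 and 5 higher and 1 lower at that p. The *Jak1* locus mean did not overlap between *Pou5f1*-KO (2.37 to 2.747) and Ctrl (1.81 to 2.25), and did between *Sox2*-KO (2.26 to 2.91) and Ctrl (1.83 to 2.52). *Jak1* +15.13 kb (chr4:101250054-101250253) read 0.52, 1.47, 1.61 and 2.24 in *Pou5f1*-line Ctrl and 3.42, 3.21, 2.54 and 3.05 in KO. In the *Sox2* line it read 0.37, 0.89, 0.24 and 0.57 in Ctrl and 3.17, 1.44, 1.65 and 2.72 in KO. Every KO library was above every Ctrl library of its line, and the differences were 1.59 (SE 0.44, adjusted p = 0.0051) and 1.73 (SE 0.44, adjusted p = 0.0046). Without *Sox2*-KO library 1 the latter was 1.42 with an adjusted p of 0.052. In early ICM the groups overlapped, with KO means of 1.23 and 1.82 against Ctrl means of 1.68 and 2.03. This window holds a GATA word (AGATAA) and a TEAD word (GGAATG), which 17.5% and 18.9% of all peaks also hold. Described after their values were seen, intronic peaks 62.34 and 17.70 kb into the gene were called higher in *Sox2*-KO late ICM, by 1.45 (adjusted p = 0.031) and 1.25 (adjusted p = 0.048), and lost the call in 4 and 6 of 8 fits with 1 library left out. The mean of the trophectoderm start-site peaks given above was also higher in those *Sox2*-KO libraries, and overlapped between *Pou5f1*-KO and Ctrl late ICM.

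The *Stat3* peak 33.04 kb into the gene became less accessible in Ctrl ICM, without closing, and stayed at its morula level without Oct4. In Ctrl late morula it read 4.35, 5.05 and 5.02 and in Ctrl early ICM 4.09, 2.80, 3.80 and 2.12, a fall of −1.60 (SE 0.39, adjusted p = 0.00098). In *Pou5f1*-KO it read 4.94, 4.70, 4.60 and 4.92 in early ICM and 4.89, 4.69, 4.87 and 5.32 in late ICM, where Ctrl read 3.58, 3.46, 2.46 and 2.98. The KO groups were above all Ctrl ICM libraries and among the morula levels, and the differences were 1.59 (adjusted p = 0.0012) and 1.82 (SE 0.36, adjusted p = 6.8e-05). In *Sox2*-KO the groups overlapped at both stages and the differences were −0.19 and 0.53, not called. The test between the knockouts gave 1.78 (adjusted p = 0.073) in early and 1.29 (adjusted p = 0.24) in late ICM, so that a difference in response was not called. With the replicate number as a block the early difference was called (adjusted p = 0.023). Without *Pou5f1*-line Ctrl library 1 or *Sox2*-KO library 3 the early value was 2.07 and 2.02, with adjusted p of 0.035 and 0.044.

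Other *Stat3* introns showed single changes. A peak 32.47 kb into the gene, described after its values were seen, had a called difference of 1.47 (adjusted p = 0.00076) for late ICM without Oct4. *Stat3* +14.85 kb (chr11:100924594-100924793) was called higher in *Sox2*-KO late ICM, by 1.47 (adjusted p = 0.033). That call was lost without Ctrl library 2, 3 or 4 or KO library 3 or 4, at 1.07 to 1.51 with adjusted p of 0.054 to 0.22. The other peak called there was 9.64 kb into the gene, at 1.39 (adjusted p = 0.034), and was lost in 5 of 8 fits with 1 library left out. No *Stat3* or *Jak1* peak was called lower in the 6 knockout comparisons by the fit of all libraries as deposited, without a block. *Stat3* +0.74 kb was called lower in *Pou5f1*-KO early ICM without Ctrl library 4 (−1.37, adjusted p = 0.041 against 0.082).

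**Figure D4:**
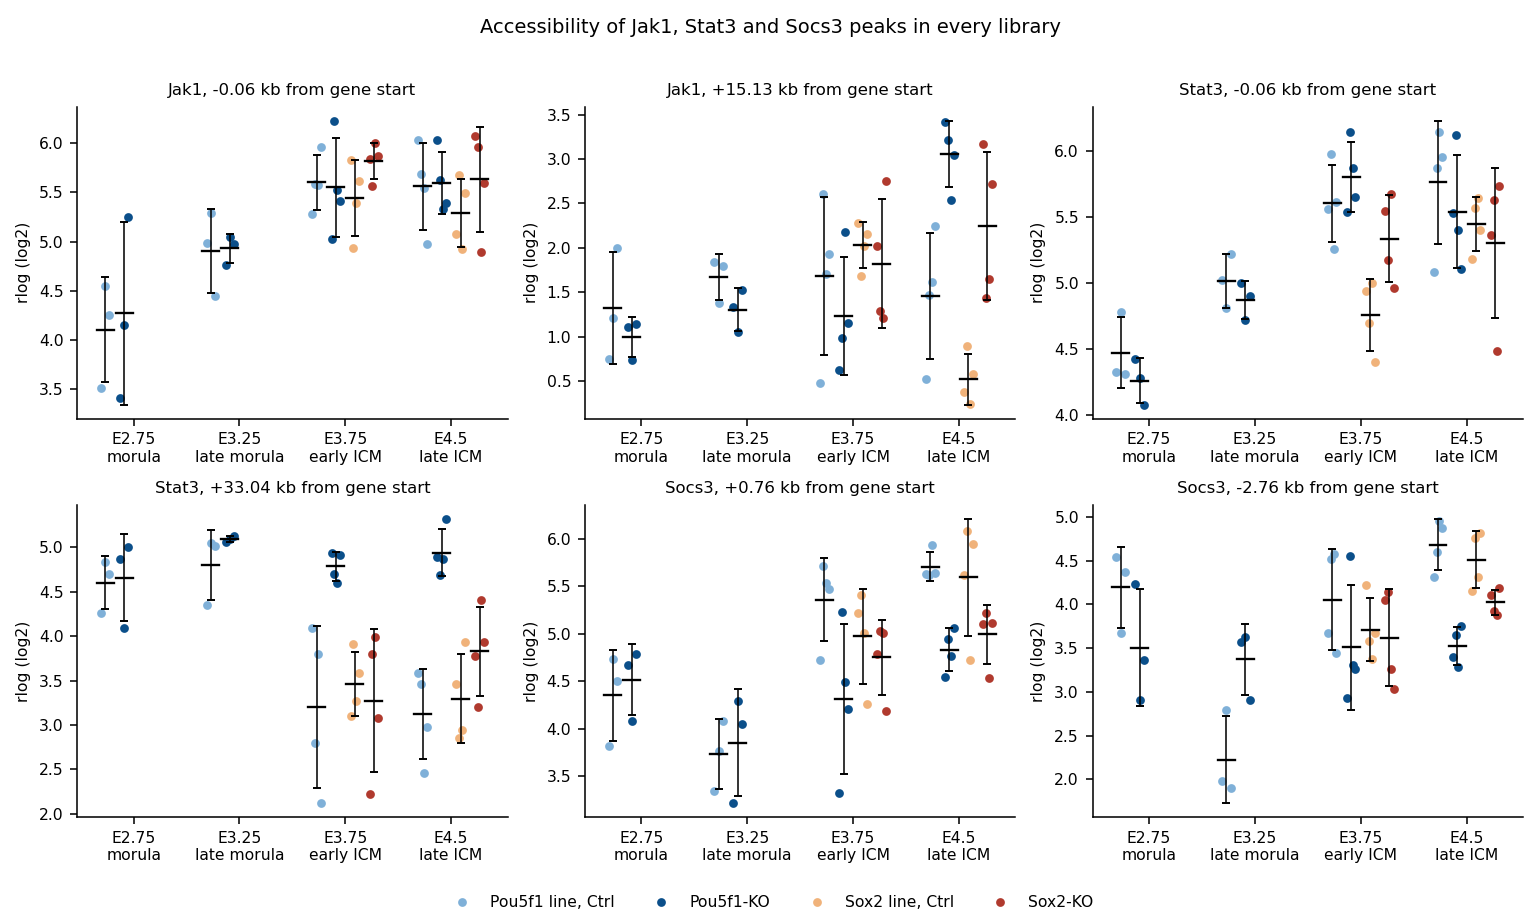
Accessibility (rlog, log2 scale, vertical axis) of 2 peaks each of *Jak1*, *Stat3* and *Socs3* in every library, by group along the horizontal axis; points are libraries, and the black lines give the group mean and 1 SD either side. *Stat3* +33.04 kb has means of 4.79 and 4.94 in *Pou5f1*-KO ICM while the Ctrl ICM means lie between 3.12 and 3.47.

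The feedback inhibitor *Socs3* was called lower in *Pou5f1*-KO, by small differences, and not in *Sox2*-KO. *Socs3* +0.76 kb (chr11:117969184-117969383), the UTR exon peak with the STAT word, overlaps an annotated *Socs3* start site. It read 5.63, 5.62, 5.94 and 5.64 in Ctrl late ICM and 4.54, 4.95, 4.77 and 5.06 in KO. In early ICM it read 4.73, 5.71, 5.53 and 5.48 in Ctrl and 3.33, 5.23, 4.496 and 4.20 in KO. The late groups did not overlap and the early groups did, and the differences were −0.88 (SE 0.32, adjusted p = 0.04) and −1.05 (adjusted p = 0.022). The late call was kept without KO library 4 and lost without any other library (−0.78 to −0.91, adjusted p = 0.054 to 0.11), and the early call was lost without Ctrl library 2, 3 or 4 or KO library 1 or 4 (−0.72 to −1.01, 0.056 to 0.2). In *Sox2*-KO the differences were −0.22 and −0.60 and were not called, and the difference between the knockouts was not called at either stage.

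The upstream *Socs3* peaks at −2.76 and −4.88 kb had the same direction. Of all 13 *Socs3* differences in *Pou5f1*-KO late ICM, 10 were negative and 3 positive. *Socs3* −2.76 kb (chr11:117972703-117972902) read 4.31, 4.60, 4.95 and 4.87 in *Pou5f1*-line Ctrl late ICM and 3.40, 3.65, 3.28 and 3.753 in KO. The groups did not overlap, and the difference was −1.16 (SE 0.37, adjusted p = 0.015), or −1.07 with an adjusted p of 0.054 without Ctrl library 3. The peak at −4.88 kb, described after its values were seen, was lower by −1.20 (adjusted p = 0.017).

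Averaged over all peaks of a locus in each library, the rlog levels placed the 12 groups in the following orders, with n = 3 for morula groups and n = 4 for ICM groups. The *Lifr* mean was 3.63 ± 0.06 (SD) in *Pou5f1*-line Ctrl late ICM, above all libraries of the next group, Ctrl early ICM at 3.20 ± 0.21. It was then 2.90 ± 0.27 in *Sox2*-line Ctrl late ICM, 2.56 ± 0.25 in *Pou5f1*-KO early ICM, 2.49 ± 0.09 in *Sox2*-line Ctrl early ICM, 2.34 ± 0.43 in *Pou5f1*-KO late ICM, 1.80 ± 0.17 in *Sox2*-KO early and 1.74 ± 0.25 in *Sox2*-KO late ICM. These 7 groups overlapped neighbour by neighbour. The morula groups followed without overlap, from 1.35 ± 0.14 in Ctrl morula through 1.28 ± 0.16 in KO morula and 1.24 ± 0.19 in KO late morula to 1.07 ± 0.11 in Ctrl late morula.

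The *Il6st* mean overlapped at every neighbouring pair of groups. It was 3.46 ± 0.23 and 3.46 ± 0.11 in the Ctrl late ICMs of the *Sox2* and *Pou5f1* lines, and 3.35 ± 0.20 and 3.05 ± 0.25 in the Ctrl early ICMs of the *Pou5f1* and *Sox2* lines. The KO ICMs followed at 2.62 ± 0.20 (*Pou5f1*, early), 2.56 ± 0.11 (*Sox2*, early) and 2.52 ± 0.24 (*Pou5f1*, late), with KO late morula at 2.50 ± 0.10 above *Sox2*-KO late ICM at 2.35 ± 0.15. Ctrl late morula at 2.30 ± 0.11, Ctrl morula at 2.17 ± 0.20 and KO morula at 2.02 ± 0.19 were lowest.

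The signalling loci had narrower spans, and neighbours overlapped throughout. The *Jak1* mean ran from 2.60 ± 0.16 in *Pou5f1*-KO late ICM and 2.51 ± 0.28 in *Sox2*-KO late ICM through 2.46 ± 0.05 in KO and 2.44 ± 0.09 in Ctrl late morula. It was then 2.32 ± 0.08 in *Pou5f1*-line Ctrl early ICM, and 2.18 ± 0.18 and 2.18 ± 0.10 in *Sox2*-KO and *Pou5f1*-KO early ICM. Ctrl morula followed at 2.16 ± 0.06 and *Sox2*-line Ctrl early ICM at 2.12 ± 0.24. The lowest were the Ctrl late ICMs of the *Sox2* line (2.09 ± 0.31) and the *Pou5f1* line (2.085 ± 0.19) and KO morula (1.96 ± 0.02). The *Stat3* mean was also highest in *Pou5f1*-KO and *Sox2*-KO late ICM, at 3.58 ± 0.10 and 3.51 ± 0.11, with KO and Ctrl early ICM of the *Pou5f1* line at 3.41 ± 0.15 and 3.41 ± 0.25. It was 3.246 ± 0.10 in Ctrl late morula, 3.23 ± 0.34 and 3.21 ± 0.31 in Ctrl and KO early ICM of the *Sox2* line, 3.19 ± 0.21 and 3.15 ± 0.14 in the Ctrl late ICMs, 2.97 ± 0.25 in KO late morula, and 2.80 ± 0.31 and 2.56 ± 0.15 in Ctrl and KO morula.

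The *Socs3* mean had its highest value in *Pou5f1*-line Ctrl late ICM, at 3.73 ± 0.29, followed by KO morula (3.53 ± 0.22) and Ctrl morula (3.30 ± 0.11). It was 3.27 ± 0.22 in *Sox2*-line Ctrl late ICM and 3.27 ± 0.21 in *Pou5f1*-line Ctrl early ICM, 3.20 ± 0.18 in KO late morula, and 3.18 ± 0.17 and 3.05 ± 0.35 in *Pou5f1*-KO late and early ICM. *Sox2*-KO early and late ICM stood at 2.99 ± 0.39 and 2.95 ± 0.04, *Sox2*-line Ctrl early ICM at 2.90 ± 0.20 and Ctrl late morula, the lowest, at 2.71 ± 0.02.

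**Figure D5:**
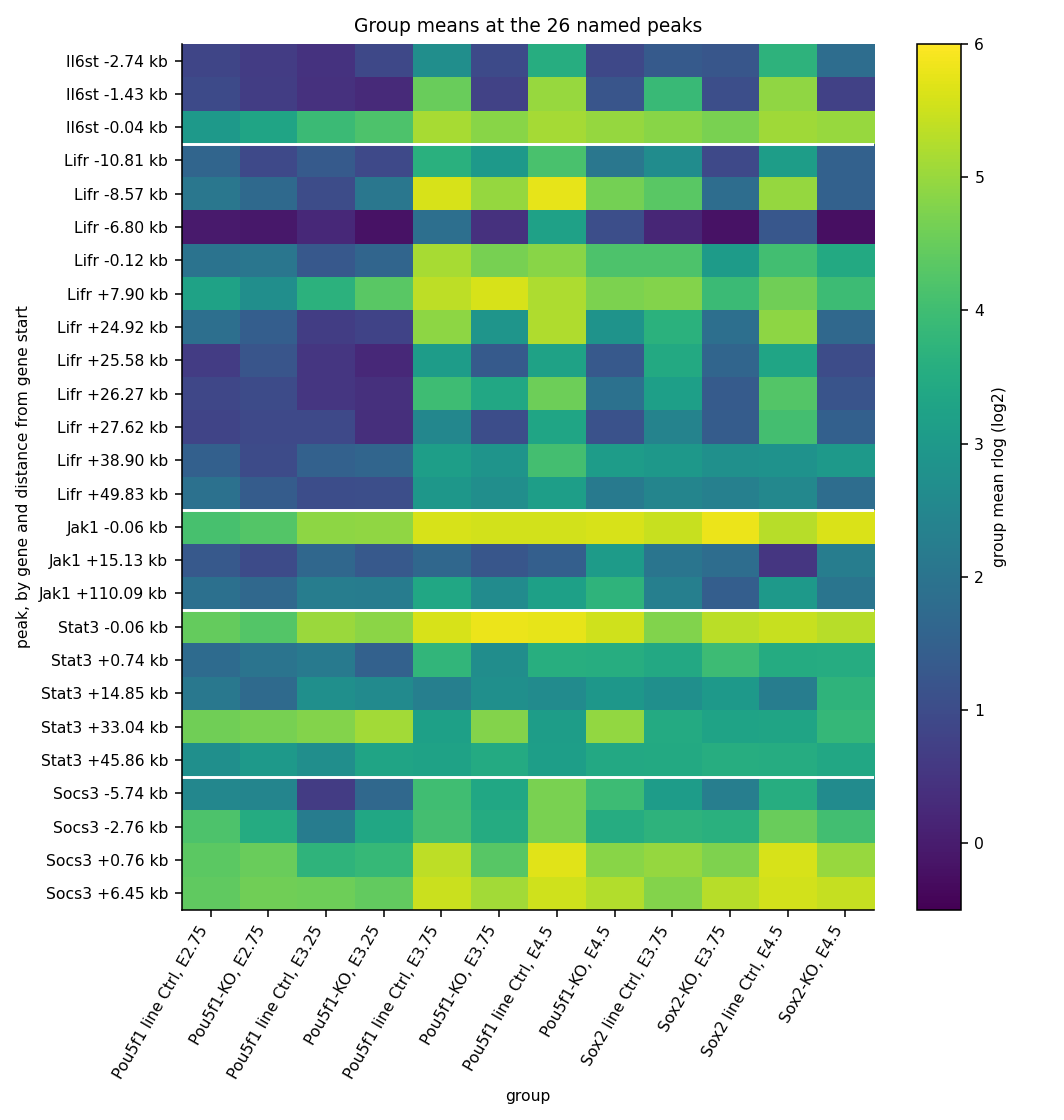
Heat map of group mean rlog (log2 scale, colour) for the 26 peaks named by the fixed rule (rows) in the 12 groups (columns). The *Il6st* −1.43 kb row is bright in the 4 Ctrl ICM columns (3.89 to 4.99) and dark in the 8 others (0.27 to 1.20), and the *Stat3* +33.04 kb row is brightest in the morula and *Pou5f1*-KO columns (4.60 to 5.09).

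No change of a knockout effect from early to late ICM was called at any of the 80 peaks. For *Pou5f1* 0 peaks were called for a change of the effect between the ICM stages, as were 0 of all 152393 peaks (0%), with 6 lower and 5 higher of the 80 at an unadjusted p under 0.05 in limma. By locus, 19 of 22 such changes were negative at *Lifr* (median −0.72, 4 lower and 0 higher at that p) and 14 of 16 were positive at *Jak1* (median 0.74, 0 lower and 3 higher). For *Sox2* 0 were called, where 0.019% of all peaks were, with 8 lower and 5 higher.

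Elsewhere in the genome, peaks with the pattern of the *Il6st* −1.43 kb peak over the 12 group means were found nearest to *Clec2e*, *Ell2* and *Rmdn2*, with Pearson correlations of 0.996, 0.995 and 0.995. For *Lifr* +26.27 kb they were nearest to *Grik2*, *Tenm3* and *Btbd11* (0.983, 0.982 and 0.980), and for *Stat3* +33.04 kb to *Dapk1*, *Efcab3* and *Tab3* (0.984, 0.980 and 0.978). For *Socs3* −2.76 kb and *Jak1* +15.13 kb the highest values were 0.937, nearest to *Gpatch8*, and 0.968, nearest to *Syt10*. The genes are only those with the nearest protein-coding start site, from 951 bp (*Dapk1*) to 1195628 bp (*Tenm3*) away, with *Syt10* at 180019 bp. These describe group means that share their libraries and are the highest of all peaks outside the 5 loci.

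The remaining genes of the pathway, taken with the same window, held 540 peaks, which were called lower in late ICM in shares close to or under those of all peaks. In *Pou5f1*-KO late ICM 3 peaks were called lower and 6 higher of 71 at ligand genes, 5 and 6 of 49 at other receptor genes, 5 and 0 of 48 at other kinase genes, 3 and 2 of 64 at other STAT genes, 12 and 12 of 149 at inhibitor genes and 15 and 6 of 159 at STAT3 target genes. In *Sox2*-KO late ICM the counts were 1 and 4, 2 and 2, 2 and 1, 0 and 2, 4 and 4, and 8 and 2 in the same order. Per role the share called lower ran from 4.23% to 10.4% in *Pou5f1*-KO and from 0% to 5.03% in *Sox2*-KO, beside the 10.1% and 4.88% of all peaks. The share called higher ran from 0% to 12.2% (other receptors) in *Pou5f1*-KO and from 1.26% to 5.63% (ligands) in *Sox2*-KO, beside 8.19% and 2.71%. In *Pou5f1*-KO early ICM the share ran from 1.41% at ligand genes to 8.33% (4 of 48) at other kinase genes, beside 5.43%. In *Pou5f1*-KO morula it was 1.56% (1 of 64) at other STAT genes, beside 0.185%.

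For each role the peak called in the most knockout comparisons was named. Among kinases this was a peak at *Jak2* (chr19:29285628-29285827), the gene of another kinase that binds gp130, and it read 4.99, 3.80, 3.39 and 3.42 in *Pou5f1*-line Ctrl late ICM and 1.03, 0.66, 1.24 and 1.21 in KO. In *Sox2*-line late ICM it read 4.19, 4.59, 4.56 and 3.62 in Ctrl and 2.23, 2.15, 1.35 and 1.44 in KO. Neither pair overlapped, and the differences were −2.46 and −2.87 in *Pou5f1*-KO early and late ICM and −2.13 and −2.45 in *Sox2*-KO, all called. A peak at the locus of *Lif*, the ligand gene (chr11:4246241-4246440, nearest start site that of *Osm*), was called lower in late ICM of both knockouts, by −1.88 (adjusted p = 0.00047) and −2.10 (adjusted p = 0.00016). It was the only 1 of the 24 *Lif* peaks called lower, while 4 were called higher in *Pou5f1*-KO and 2 in *Sox2*-KO late ICM. A peak at *Socs6*, of the same inhibitor family as *Socs3*, was called lower by −1.70 and −1.37 in *Pou5f1*-KO early and late ICM and by −1.96 in *Sox2*-KO late ICM.

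A peak near the survival gene *Mcl1* (chr3:95654739-95654938) was lower in *Pou5f1*-KO already in morula, by −2.12 (adjusted p = 0.019), and in early and late ICM by −1.65 and −2.04, all called, with −1.65 (adjusted p = 0.079) in late morula. In *Sox2*-KO it differed by 0.37 and 0.83, not called. At the locus of the receptor gene *Il11ra1* a peak (chr4:41707216-41707415, nearest protein-coding start site that of *Rpp25l*) was lower by −1.39 and −2.05 in *Pou5f1*-KO ICM. It differed by 0.29 and 0.33 in *Sox2*-KO, not called. A peak near *Stat2* (chr10:128305384-128305583) was higher in late ICM of both, by 1.32 and 1.59.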

How the data were processed

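ATAC-seq was measured in 44 libraries of 12 groups. The authors trimmed reads, aligned them to mm10 with Bowtie2, removed duplicates with Picard, shifted read ends for the Tn5 footprint, called peaks per library with MACS2, kept summits found in at least 2 replicates of a group, and counted insertions in 200 bp windows with BEDTools; deepTools is also named, and versions are not given in the sources used here. The deposited values are log2 (rlog of DESeq2), which the authors normalized for depth and shrank toward each peak's mean, so that differences at peaks with few reads are understated. No counts were used here, depth is unknown, and no count interval is given. Another deposited log2 file holds the authors' group means and was used to check the columns (largest difference 4.3e-08).

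The members, gene lists and tests were chosen with earlier results of these data known. Genes came from GENCODE vM21 on GRCm38, an earlier release than the one the authors used. Limma 3.58.1 in R 4.3.3 (lmFit, contrasts and eBayes with an intensity trend) fitted 12 group means to all 152393 peaks with 32 residual degrees of freedom, and p-values (2-sided) were adjusted by Benjamini-Hochberg over all peaks for each of 17 contrasts. The fit was tested on simulated data. SE are those of the fit and SD those between libraries. Named peaks were those within 100 bp of a start site or else nearest to one, those called in the same direction in both knockouts in late ICM, the smallest adjusted p of each ICM knockout comparison if called, the highest mean, and the largest rise from morula to early ICM in *Pou5f1*-line Ctrl, for each gene. Alternatives were a fit of only the libraries compared, peaks whose mean rlog reached the median, quantile normalization, the replicate number as a block, each library left out in turn, and a flank of 10 kb. Same-numbered KO and Ctrl libraries deviated together, with a correlation over 0.1 in every pair, in late morula (0.109 to 0.192) and early ICM (0.121 to 0.162) of the *Pou5f1* line. In *Sox2* early ICM 3 of 4 pairs were over 0.1 (0.0859 to 0.293), and at the other stages not every pair was (0.0479 to 0.153 in morula, 0.0174 to 0.164 and −0.0248 to 0.0903 in late ICM of the *Pou5f1* and *Sox2* lines); the numbers come from the labels. Tables were made with Python 3.11.15, numpy 2.4.6, pandas 2.3.3 and the R package data.table (version 1.17.8), and figures with matplotlib 3.10.9.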

Additional observations from a re-analysis of the deposited data

Results flagged for a closer look

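In 7 of 208 groups of 4 libraries at the 26 named peaks, 1 library lay apart from the rest by the Dixon criterion, where chance alone gives about 1 in 20. *Jak1* +110.09 kb read 2.02 in *Pou5f1*-KO early ICM library 2, with the others at 2.78 to 2.94. The same peak read 1.41 in *Sox2*-line Ctrl early ICM library 3, with the others at 2.49 to 2.70. *Lifr* +49.83 kb read 1.46 in *Sox2*-line Ctrl late ICM library 1, with the others at 2.78 to 2.98. *Socs3* +0.76 kb read 5.94 in *Pou5f1*-line Ctrl late ICM library 3, with the others at 5.62 to 5.64. *Socs3* −5.74 kb read 2.46 in *Pou5f1*-KO early ICM library 1, with the others at 3.64 to 3.69. *Stat3* +14.85 kb read 2.45 in *Pou5f1*-KO late ICM library 4, with the others at 3.06 to 3.11, and *Stat3* +0.74 kb read 3.16 in library 3 of that group, with the others at 3.68 to 3.70.

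Between groups, the *Pou5f1* effect minus the *Sox2* effect in late ICM was 2.33 at *Lifr* −8.57 kb, and the *Pou5f1* effect in early ICM minus that in late morula was −3.57 at *Il6st* −1.43 kb. Each was a test of the difference itself in the limma fit.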

How the results depend on the processing

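Depth is unknown, and rlog shrinks peaks with few reads, so a difference that was not called at a low peak may have been too small to detect. Of 156 knockout differences at the 26 named peaks 38 were called. All 38 kept their call with quantile normalization and with the replicate block, 36 kept it with only the libraries compared (*Lifr* −10.81 kb in *Sox2*-KO early ICM and *Lifr* +27.62 kb in *Pou5f1*-KO early ICM were lost), and no difference at a named peak changed sign and call. The same 38 tested with each library left out in turn lost the call in 38 of 304 fits, and the 118 that were not called gained one in 4 fits (*Stat3* +0.74 kb, *Lifr* +38.90 kb and, in 2, *Lifr* +49.83 kb). The 13 knockout calls at other peaks lost it in 32 of 104, which touched 10 of the 13. Among peaks whose mean rlog reached the median, 43 of the 80 peaks could be tested, and fewer were called: 4 in *Pou5f1*-KO early and 11 in late ICM, 2 in *Sox2*-KO early and 3 in late ICM, 21 from late morula to early ICM, 0 from early to late ICM in *Sox2*-line Ctrl, 0 for the *Pou5f1* effect in early ICM minus late morula, and 0 and 0 between the lines' Ctrl in early and late ICM. Most of these drops are peaks under the median that were left out: of the peaks called with all peaks, 3 of 8, 11 of 22, 2 of 6, 4 of 15 and 21 of 41 could be tested for the first 5 and 0 for the last 4, and all kept their call but *Jak1* +17.70 kb in *Sox2*-KO late ICM. only the libraries compared, 4 peaks were called between the lines' Ctrl in late ICM instead of 2. Quantile normalization called 1 peak in *Pou5f1*-KO morula, and so did the replicate block. The block called 2 peaks in place of 0 for the *Pou5f1* minus the *Sox2* effect in early ICM (*Lifr* −8.57 kb and *Stat3* +33.04 kb) and 2 in place of 1 for the *Pou5f1* effect in early ICM minus late morula; 36 of 44 libraries correlated best with their own number. It changed no other count by more than 1.5 times. The causes were not tested. Leaving out 1 library gave 0 to 1 called peaks in *Pou5f1*-KO morula (1 without KO library 1), 0 in late morula, 6 to 8 in early and 17 to 23 in late ICM, and 5 to 6 and 10 to 14 in *Sox2*-KO early and late ICM. It gave 2 to 7 from morula to late morula, 31 to 41 from late morula to early ICM, 1 to 2 from early to late ICM in *Sox2*-line Ctrl (2 without early library 4), 0 to 1 for the *Pou5f1* minus the *Sox2* effect in early and 0 to 1 in late ICM, 1 for the *Pou5f1* effect in early ICM minus late morula, 0 to 2 and 1 to 4 between the lines' Ctrl in early and late ICM, and 0 for the rest. A flank of 10 kb moved no count by more than 1.5 times. Over all peaks, the calls behind the background shares in *Pou5f1*-KO morula (282 lower, 79 higher) became 771 and 245 with the block, 497 and 200 with quantile normalization and 22 and 15 with only the libraries compared. Those in late morula (822 and 165) became 1357 and 350 with the block and 1219 and 369 with only the libraries compared, and those in *Sox2*-KO early ICM (2917 and 363) became 1851 and 57 with only the libraries compared.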
